A study of Homo sapiens with 12 samples.

Results

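CTCF and 4 DNA-binding or chromatin-remodelling genes that act with it in genome folding, YY1, MAZ, ZNF143 and CHD8, were compared among 3 groups of U251-APP cells. The members were chosen by gene symbol, and all 5 were listed and kept among the 11178 genes of the deposited expression table, of which 11128 passed the filter on low values. U251 is an established human glioblastoma line, and every group stably expressed a mutant APP (amyloid precursor protein) carrying K670N and M671L. The wild-type group (4 libraries) kept its CTCF-binding sites. The CTCF-A KO group (4 libraries) and the CTCF-B KO group (4 libraries) each lacked one CTCF-binding site, CTCF-A or CTCF-B, deleted with Cas9 and a pair of guide RNAs, after which single-cell clones were grown. The CTCF gene itself was not the target. The labels list CRISPR/Cas9 editing as the treatment of all libraries, wild type included, do not locate either site in the genome, and leave it unsaid if the 4 libraries of a group come from different clones or from 1. The p-values therefore measure only how far these libraries spread, which may be technical.

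CTCF is a zinc finger protein that binds a long DNA motif and halts the loop-extruding cohesin ring, so that pairs of bound sites become the anchors of chromatin loops and the borders of insulated domains. YY1 is a zinc finger factor that bridges promoters and enhancers and also recruits INO80 and Polycomb complexes. MAZ binds G-rich promoters and has been described as an insulator factor beside CTCF, ZNF143 binds promoters and has been found at loop anchors, and CHD8 is an ATP-dependent remodeller described as a CTCF-binding protein and as a repressor of Wnt target genes. CTCF has also been described as binding the APP promoter.

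In short, CTCF mRNA fell in both knockouts, to 0.81 of its wild-type level with CTCF-A deleted and to 0.832 with CTCF-B deleted. YY1 and ZNF143 mRNA fell in CTCF-A KO, while neither passed the test in CTCF-B KO. The ZNF143 difference was smaller in replicate 4 of CTCF-A KO alone (log2 -0.147). MAZ mRNA fell in CTCF-B KO, but that call was lost in 4 of 12 cases when 1 library was left out. In each of those cases the library was one of the 2 groups compared. After removal of a fitted trend with GC content and transcript length, MAZ was lower in both knockouts (log2 -0.26 and -0.25, CTCF-A KO first). On the deposited values CHD8 passed the test in neither.

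The promoters of the members, from RefSeq on GRCh38.p14, are shown because the genes of one DNA-binding factor can carry motifs of another and because base composition bears on several values given below. All 5 members matched the promoter table, whose window runs from 250 bases before to 50 bases after each start and was searched whole for motifs. The starts of the members lie inside the gene spans given below, and sequence before any start further upstream is not covered. For CHD8, on the - strand, the 250 bases lie at chr14:21437276-21437525, while the gene reaches to 21456126. The G and C share of the 250 bases before the start was 76.8% for CTCF, 83.2% for YY1, 88.8% for MAZ, 60.0% for ZNF143 and 59.2% for CHD8. Only stretches outside annotated exons, or 30-base sites, are printed, 5′ to 3′ on the strand of the gene. Capitals mark the MAZ motif GGGAGGGG, or its reverse complement CCCCTCCC where it lies on the opposite strand, and in the last line the reverse complement of the 11-letter YY1 consensus.
CTCF, chr16:67562416-67562445, + strand: ccctgcgccaaCCCCTCCCctcacctttcc
MAZ, chr16:29806279-29806495, + strand: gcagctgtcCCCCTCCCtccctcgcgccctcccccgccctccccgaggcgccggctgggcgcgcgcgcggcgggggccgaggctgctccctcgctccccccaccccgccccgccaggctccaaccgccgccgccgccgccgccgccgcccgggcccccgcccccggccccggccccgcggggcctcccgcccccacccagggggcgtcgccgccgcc
CHD8, chr14:21437373-21437402, - strand: ctaacctgcggGGGAGGGGgaagggagctc
YY1, chr14:100238894-100238984, + strand: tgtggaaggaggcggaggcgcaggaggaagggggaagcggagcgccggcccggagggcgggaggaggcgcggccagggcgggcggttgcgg
ZNF143, chr11:9460856-9460964, + strand: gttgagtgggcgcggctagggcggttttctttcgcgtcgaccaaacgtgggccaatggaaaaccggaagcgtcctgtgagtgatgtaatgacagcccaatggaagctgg
CTCF, chr16:67562541-67562570, + strand: caccgcgccGCCGCCATTTTgtgtctgagc

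The MAZ motif, searched on both strands, was found in the windows of CTCF, MAZ itself and CHD8, and 14.6% of the 35116 promoters in the table held it. It was not found in the windows of YY1 and ZNF143. The YY1 consensus was found in CTCF alone among the members, from base 25 after its start, and 1.44% of all promoters held it. Its 8-letter core ATGGCGGC was in 3.0% of promoters, overlapping the longer form. The ZNF143 core ACTACAAT (0.638% of promoters) and the 12-letter CTCF consensus (0.353%) were in none of the 5 windows. These are matches of letters, and none of them is shown here to be a bound site.

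Values are log2 normalized expression, so a difference of 1 is a doubling. The depth of the libraries is unknown. On this scale the median of all genes stood 0.00485 above wild type in CTCF-A KO, and 0.00164 above it in CTCF-B KO. The CTCF-A KO libraries were more spread than the others, with a median absolute difference between replicates of 0.08 to 0.29, against 0.052 to 0.082 among wild-type and 0.055 to 0.081 among CTCF-B KO libraries. In 3 of them expression also tilted with base composition: the 10% of genes richest in G and C exceeded the 10% poorest in them, relative to wild type, by 0.96 in replicate 1, 0.45 in replicate 2 and 0.66 in replicate 3, but by 0.06 in replicate 4. In wild type and CTCF-B KO this tilt lay between -0.15 and 0.09. Results on the members are therefore also given after removal of a fitted trend with GC content and transcript length from each library ("trend removed"), and with CTCF-A KO represented by its replicate 4 alone. A p given for replicate 4 alone assumes that this 1 library varies like those of the other groups, from which its spread is taken. Astrocyte and glioma markers present in the table (6 of 11 listed) summed to 126000 to 149000 on the linear scale in wild type, with ranges of 81200 to 96000 for CTCF-A KO and 69900 to 73300 for CTCF-B KO. For 3 of 6 neuronal markers these sums were 38100 to 41400, 53500 to 61700 and 13000 to 14700. The markers of microglia (5), oligodendrocytes (4) and endothelium (3) were not analysed here, and 1 epithelial marker of 3, KRT18, lay between 359 and 505 in all groups. Their part in the differences below was not tested, and in bulk RNA fewer cells of a type and less RNA per cell cannot be told apart.

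Per kilobase of longest transcript, MAZ had the highest level of the 5 in wild type (log2 9.02 ± 0.13, SD, n = 4), followed by CTCF (8.88 ± 0.026), YY1 (8.38 ± 0.028), CHD8 (7.82 ± 0.044) and ZNF143 (6.47 ± 0.11). The ranges of MAZ (8.88 to 9.18) and CTCF (8.84 to 8.9) overlapped, and the other neighbours in this order were apart. The order was the same in both knockouts. When all annotated exons were merged to give the length, YY1 (8.0) stood above CTCF (7.8), so the order of these 2 genes depends on the transcript assumed. Without length, CTCF lay between the 83.8 and 84.6 percentile of all genes in the wild-type libraries, YY1 between 83.6 and 84.3, CHD8 between 80.5 and 82.0, MAZ between 71.2 and 76.5, and ZNF143 between 24.6 and 28.2.

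**Figure D1:**
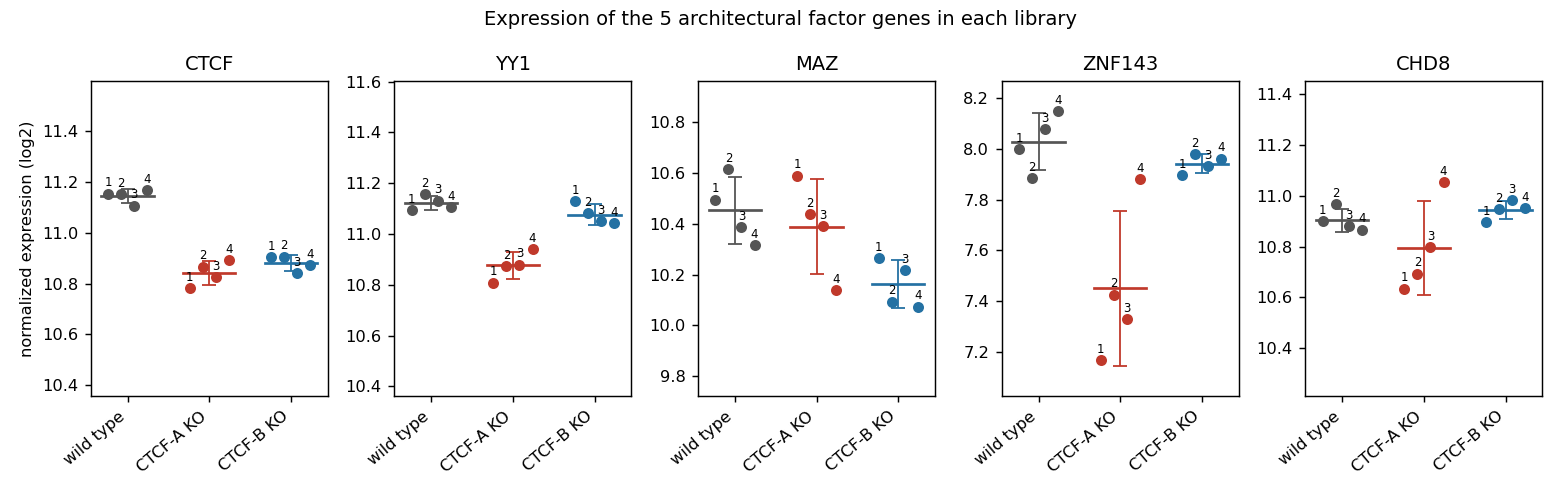
Log2 normalized expression of the 5 genes in each of the 12 libraries, by group. Points are libraries with their replicate number, horizontal lines are means and error bars SDs (n = 4), and all panels span the same number of log2 units. CTCF is below wild type in all 8 knockout libraries, and replicate 4 of CTCF-A KO is the highest of its group for ZNF143 and CHD8 and the lowest for MAZ.

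Of the 5 members, 3 were called lower and 0 higher in CTCF-A KO, where 31.1% of all genes were called lower and 31.8% higher (limma, Benjamini-Hochberg adjusted p under 0.05). In CTCF-B KO, 2 of 5 were called lower and 0 higher, against 20.6% and 18.9% of all genes. Between the knockouts, 2 were lower and 1 higher in CTCF-A KO, against 32.6% and 33.4% of all genes. With so many genes called, these counts are no result about the members. The libraries of 3 members lay wholly below wild type in CTCF-A KO (22.1% of all genes), those of 2 members in CTCF-B KO (27.3%), and those of 2 members lay lower in CTCF-A KO than in CTCF-B KO (25.3%). Both knockouts were compared with the same 4 wild-type libraries, so the sharing of a fall between them is not independent evidence.

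CTCF (ENSG00000102974, chr16:67562407-67639185, GRCh38, + strand) was measured at 11.15, 11.15, 11.11 and 11.17 in wild-type replicates 1 to 4. The CTCF-A KO libraries were at 10.78, 10.87, 10.82 and 10.89, those of CTCF-B KO at 10.90, 10.91, 10.84 and 10.87. Every knockout library was below every wild-type library, and the ranges of the 2 knockouts overlapped. CTCF fell in CTCF-A KO by 0.30 on the log2 scale (SE 0.038, 95% interval -0.385 to -0.222), to 0.81 of wild type, with an adjusted p of 2.11e-05. In CTCF-B KO it was 0.26 (SE 0.038, interval -0.346 to -0.183), to 0.832 of wild type, with an adjusted p of 0.000114. An exact two-sided permutation test of the libraries gave p = 0.0286 for each, the smallest p that 4 against 4 libraries allow. In CTCF-A KO, 26.2% of all genes were lower by 0.25 or more, and 15.7% in CTCF-B KO.

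The 2 knockouts were not distinguished in CTCF level. The difference CTCF-A KO minus CTCF-B KO was -0.04 (95% interval -0.12 to 0.0423, adjusted p 0.375). With the trend removed, CTCF was at 11.02, 10.995, 10.96 and 10.92 in CTCF-A KO. CTCF-B KO lay between 10.88 and 10.95, and both were still below every wild-type library (11.10 to 11.17). The falls were then 0.17 and 0.22 (adjusted p 0.000208 and 2.62e-05), and the first is 1.8 times smaller than on the deposited values. Replicate 4 of CTCF-A KO alone gave a fall of 0.25.

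On the deposited values most genes around CTCF on chromosome 16 were less low than CTCF itself. Of the 10 nearest kept genes on each side, over 754 kb, CTCF-A KO had 8 called higher and 5 lower (median difference 0.01). In CTCF-B KO 1 was higher and 7 lower, with a median of -0.05. In each knockout 1 of these 20 genes fell further than CTCF, LRRC29 in CTCF-A KO (-0.41) and PARD6A in CTCF-B KO (-0.43), both named after their values were seen. The nearest neighbours were RIPOR1 at -0.03 and -0.22 and ACD, a telomere protein gene, at 0.09 and -0.15, CTCF-A KO first. Once the trend was removed, 9 of the 20 lay below CTCF with CTCF-A deleted, and 3 with CTCF-B deleted. The neighbours' median was then -0.14 for CTCF-A KO, close to the -0.17 of CTCF itself, and -0.01 for CTCF-B KO. Of all genes, 31.8% were called higher and 31.1% lower in CTCF-A KO, and 18.9% and 20.6% in CTCF-B KO. The counts around CTCF and around the other members are to be read beside these shares.

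YY1 (ENSG00000100811, chr14:100238298-100282792, + strand) was at 11.10, 11.16, 11.13 and 11.11 in wild type. The CTCF-A KO libraries were at 10.81, 10.87, 10.88 and 10.94, those of CTCF-B KO at 11.13, 11.08, 11.05 and 11.04. The 4 CTCF-A KO libraries were below all the others, while those of CTCF-B KO overlapped wild type. YY1 fell by 0.25 in CTCF-A KO (SE 0.039, interval -0.331 to -0.16), to 0.843 of wild type, with an adjusted p of 0.000177. In CTCF-B KO the difference was -0.05 (interval -0.131 to 0.0401, adjusted p 0.397). The difference between the knockouts was itself called, at -0.20 (interval -0.286 to -0.115, adjusted p 0.000648; exact permutation p = 0.0286).

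Removal of the trend drew the CTCF-A KO libraries of YY1 together, to 10.98, 10.99, 10.97 and 10.96. The fall was then 0.15 (adjusted p 0.000301), and 1.6 times smaller than before, and the gap to CTCF-B KO was -0.19 (adjusted p 2.76e-05). The ratio of CTCF to YY1, without regard to length and so to be compared only between groups, was 0.02 ± 0.04 in wild type (log2, SD, n = 4). It was -0.03 ± 0.02 with CTCF-A deleted, where both were lower, and -0.20 ± 0.03 in CTCF-B KO, where CTCF alone of this pair was called. Around YY1, 5 of 20 neighbours were called higher and 8 lower in CTCF-A KO (median -0.03), and 7 of the 20 fell further than YY1. The nearest were EVL, an actin regulator, at -0.03 with CTCF-A deleted and -0.40 with CTCF-B deleted, and the mitochondrial carrier SLC25A29 at 0.31 and -0.27, and neither had the pattern of YY1.

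ZNF143 (ENSG00000166478, chr11:9460319-9528524, + strand) was the least expressed of the 5 and showed the largest mean difference. Wild type was at 8.0, 7.89, 8.08 and 8.15, and CTCF-B KO at 7.90, 7.98, 7.93 and 7.96. CTCF-A KO was at 7.17, 7.43, 7.33 and 7.88. Replicates 1 to 3 of CTCF-A KO were well below the other groups, and replicate 4 lay just under the lowest wild-type library. The fall in CTCF-A KO was 0.58 (SE 0.12, interval -0.835 to -0.318), to 0.671 of wild type, with an adjusted p of 0.00117. In CTCF-B KO the difference was -0.09 (interval -0.344 to 0.173, adjusted p 0.608), and between the knockouts it was -0.49 (adjusted p 0.00286).

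The size of the ZNF143 fall rested on replicates 1 to 3. With replicate 4 standing alone for the group, and the spread taken from the other groups, the difference from wild type was -0.15 and was not called (adjusted p 0.227). With the trend removed the libraries were at 7.45, 7.54, 7.51 and 7.93, and the fall was 0.42 (adjusted p 0.000995), with replicate 4 still the highest. Replicate 4 then lay above wild-type replicate 2 (7.91), so the 2 groups overlapped. Of the 20 genes around ZNF143, 5 were higher and 10 lower with CTCF-A deleted (median -0.03), and 2 fell further than ZNF143. The nuclear import receptor gene IPO7, its nearest neighbour on one side, was at -0.83 in CTCF-A KO (adjusted p 0.00426) and 0.19 in CTCF-B KO. WEE1, a kinase that holds back mitotic entry, on the other side, was at -0.34 and -0.25, but at 0.08 in CTCF-A KO with the trend removed.

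MAZ (ENSG00000103495, chr16:29806106-29811164, + strand) was at 10.50, 10.62, 10.39 and 10.32 in wild type, the widest wild-type range of the 5. The CTCF-A KO libraries were at 10.59, 10.44, 10.39 and 10.14, those of CTCF-B KO at 10.26, 10.09, 10.22 and 10.07. All 4 CTCF-B KO libraries were below all wild-type libraries, and in CTCF-A KO only replicate 4 was. MAZ fell by 0.29 in CTCF-B KO (SE 0.09, interval -0.486 to -0.0948), to 0.818 of wild type, with an adjusted p of 0.0216 and an exact permutation p of 0.0286. This call was lost without wild-type replicate 1 (-0.276, adjusted p 0.0554), wild-type replicate 2 (-0.236, 0.0724), CTCF-B KO replicate 2 (-0.267, 0.0613) or CTCF-B KO replicate 4 (-0.261, 0.0628), while the fall stayed between 0.236 and 0.336 over all libraries left out in turn.

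In CTCF-A KO the MAZ difference was -0.06 (interval -0.259 to 0.132, adjusted p 0.553), and 0.02 when all libraries were set to a common median. The MAZ transcript is among the richest in G and C of all genes measured (66.0%, the 97.9 percentile, against a median of 48.7%). The shift that the fitted trend gave a gene of its composition and length was 0.36, 0.18, 0.22 and 0.03 in CTCF-A KO replicates 1 to 4. After removal of the trend MAZ was at 10.24, 10.26, 10.17 and 10.10 in CTCF-A KO, below every wild-type library (10.33 to 10.56), a fall of 0.26 (adjusted p 0.00102). Replicate 4, in which the tilt was 0.06, lay 0.31 below the wild-type mean (log2), a single library. In CTCF-B KO the value changed little, to a fall of 0.25 (adjusted p 0.00159). The called difference between the knockouts, 0.23 higher in CTCF-A KO (adjusted p 0.041, exact permutation p 0.0857), was -0.01 with the trend removed and -0.02 with replicate 4 alone. It was also not called without wild-type replicate 1 (0.227), CTCF-A KO replicate 1 (0.16), 2 (0.211) or 3 (0.226), or CTCF-B KO replicate 2 (0.204), 3 (0.245) or 4 (0.197).

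Of the 20 genes around MAZ, over 1170 kb, CTCF-A KO had 15 called higher and 0 lower (median 0.27). CTCF-B KO had 10 and 0 (median 0.19). The shares over all genes were 31.8% and 31.1% in CTCF-A KO, and 18.9% and 20.6% in CTCF-B KO. At an unadjusted p under 0.05 limma gave 0 lower in each as well. The remaining genes passed in neither direction. Without the trend the medians were 0.11 and 0.22, with 5 and 3 of the 20 values below 0. None of the 20 lay below MAZ in CTCF-B KO, with or without the trend, and in CTCF-A KO 1 did on the deposited values and 0 with the trend removed. KIF22, a mitotic kinesin gene next to MAZ, was at 0.21 with CTCF-A deleted (-0.01 in replicate 4 alone) and 0.002 with CTCF-B deleted, and PRRT2, a synaptic protein gene on the other side, was at 0.43 and -0.12.

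**Figure D2:**
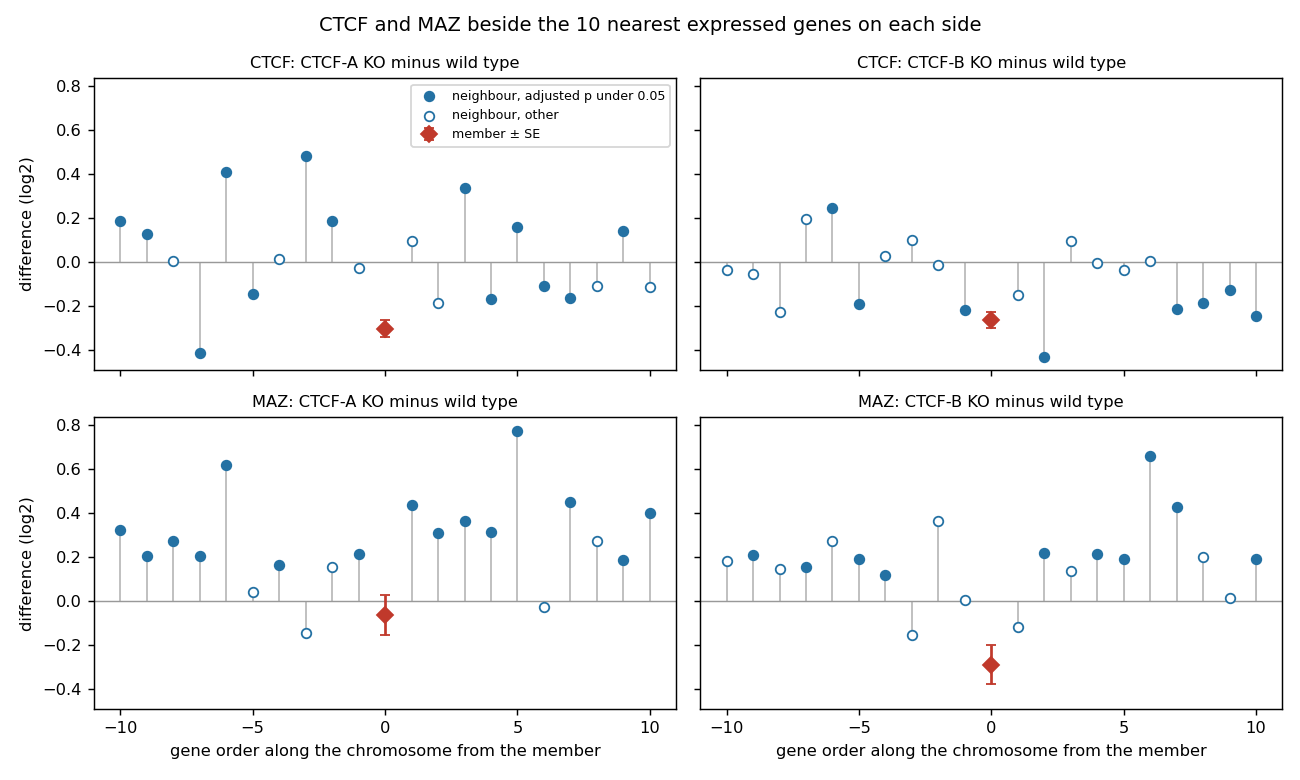
Log2 difference from wild type of CTCF (top) and MAZ (bottom) and of the 10 nearest kept genes on each side, in CTCF-A KO (left) and CTCF-B KO (right), in gene order along the chromosome. Diamonds are the members with their SE and circles are neighbours, filled where the adjusted p is under 0.05. On these deposited values CTCF lies below all but 1 neighbour in each panel, and MAZ lies below all 20 in CTCF-B KO.

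CHD8 (ENSG00000100888, chr14:21385194-21456126, - strand) was at 10.90, 10.97, 10.88 and 10.87 in wild type. CTCF-B KO had 10.90, 10.95, 10.98 and 10.95, and CTCF-A KO had 10.64, 10.69, 10.80 and 11.05. Replicates 1 to 3 were below every wild-type library and replicate 4 above all of them. The mean difference in CTCF-A KO was -0.11 (SE 0.073, interval -0.266 to 0.0501, adjusted p 0.211). With the trend removed it was -0.02 and not called (adjusted p 0.738). On the deposited values it was -0.195 and called without replicate 4 (adjusted p 0.000956), and 0.15 with replicate 4 alone. The libraries of this group thus lay on both sides of wild type.

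In CTCF-B KO the CHD8 difference was 0.04 (interval -0.117 to 0.2, adjusted p 0.689), but 0.14 and called with the trend removed (adjusted p 0.0193). CTCF-A KO minus CTCF-B KO was -0.15 (interval -0.308 to 0.00853, adjusted p 0.0872). It was -0.16 with the trend removed (adjusted p 0.00719) and -0.236 without CTCF-A KO replicate 4 (adjusted p 0.000184). Of its 20 neighbours, CTCF-A KO had 14 higher and 2 lower (median 0.22), and CTCF-B KO had 11 and 2 (median 0.17). Its nearest neighbours were SUPT16H, a subunit of the histone chaperone FACT, at -0.52 and 0.01, CTCF-A KO first, and the small GTPase gene RAB2B at 0.22 and 0.19.

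**Figure D3:**
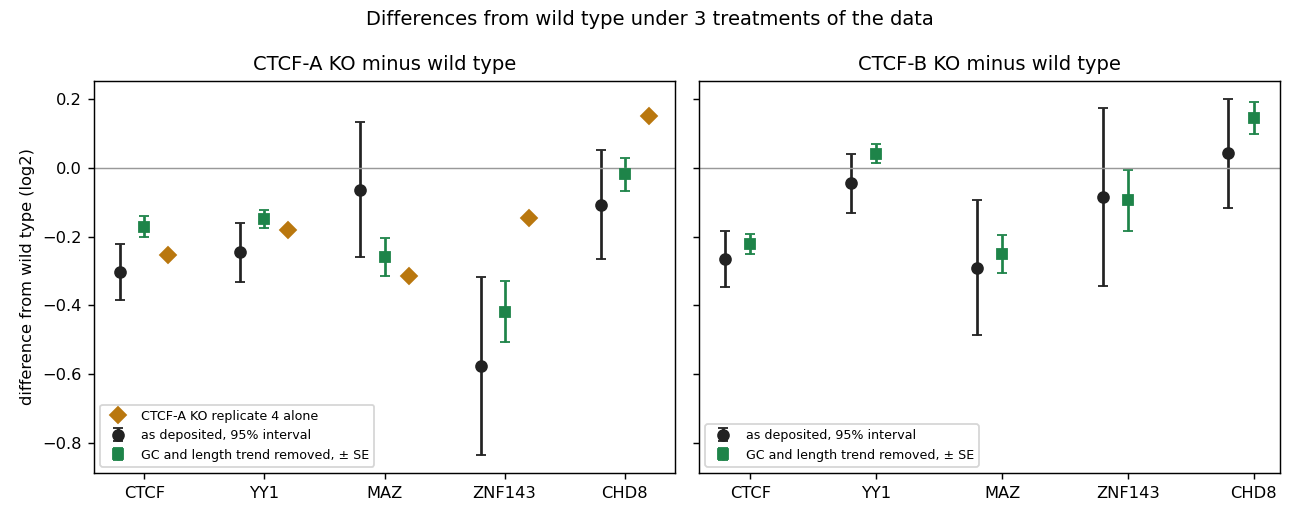
Log2 difference from wild type of the 5 genes in CTCF-A KO (left) and CTCF-B KO (right). Circles are deposited values with 95% intervals, squares are values with the GC and length trend removed with SE, and diamonds are CTCF-A KO replicate 4 alone. CTCF and YY1 stay below wild type in CTCF-A KO in all 3, MAZ moves from -0.06 to -0.26 and -0.31, and CHD8 changes side.

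With the trend removed, 4 of the 5 members were called lower in CTCF-A KO, all but CHD8. In CTCF-B KO, CTCF and MAZ were called lower and CHD8 higher. Of the 11096 genes in that fit, 6836 were called in CTCF-A KO, 3508 of them higher. In CTCF-B KO 5994 were called, 3212 of them higher. With so many genes called, these counts are no result about the members. Reads of genes that overlap a member, such as the antisense transcripts AC009095.1 at CTCF and AC009133.1 and AC009133.2 at MAZ or the small nucleolar RNAs SNORD8 and SNORD9 within CHD8, could not be told apart from those of the member, since the strand setting of the counting is not given in the sources used here.

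Across the 12 libraries, which share the group differences and the tilt with base composition, YY1 and ZNF143 ran most alike of the 10 member pairs (Pearson r 0.89), then ZNF143 and CHD8 (0.77) and CTCF and YY1 (0.72). MAZ ran against CHD8 (-0.58) and ZNF143 (-0.449). These are descriptions of 12 libraries in 3 groups. Of all kept genes, those most like CTCF were EFEMP1, an extracellular matrix gene (r 0.988, with differences of -0.84 and -0.77, CTCF-A KO first), the R-spondin receptor gene LGR4 (0.983, with -1.39 and -1.20) and TNFSF4, which encodes a cytokine of the TNF family (0.983, with -1.77 and -1.65). Their differences were larger than that of CTCF. The genes most like YY1 were DUSP16 (0.976), TGFBR2 (0.976) and GCSH (0.974), and those most like ZNF143 were ATL2 (0.987), STK38L (0.986) and ANAPC1 (0.985). For MAZ they were CPNE2 (0.966), the cell-cycle transcription factor gene E2F1 (0.939) and C1QL1 (0.932), and for CHD8 they were ARHGEF3 (0.957), WNK1 (0.95) and USP32 (0.938).

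The wider machinery was followed in 8 lists of genes. Their counts are to be read beside the shares over all genes, 31.8% called higher and 31.1% lower in CTCF-A KO. In CTCF-B KO these shares were 18.9% and 20.6%. A count near these shares is no result about a list. The shares hold for the deposited values. With the trend removed, 5994 genes were called in CTCF-B KO in place of 4389. Where a value is followed by a second one, the first is CTCF-A KO and the second CTCF-B KO, as log2 differences from wild type. Among the zinc finger relatives of the members, 3 kept genes, PATZ1, which is close to MAZ, rose in CTCF-A KO (0.27, adjusted p 0.00238) and fell in CTCF-B KO (-0.18, adjusted p 0.0304). With the trend removed the rise was 0.09 and not called (adjusted p 0.0857), and the fall was not called after common-median or quantile scaling. The difference between the knockouts was 0.45 (adjusted p 3.3e-05), and 0.24 with the trend removed. VEZF1, another relative of MAZ, was at -0.30 (adjusted p 0.00598) and -0.18, but at 0.01 in CTCF-A KO with the trend removed. ZNF76, the close relative of ZNF143, was at 0.03 and 0.14, and passed the test in neither knockout.

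Of the 5 other CHD remodeller genes, 4 were called lower and 1 higher in CTCF-A KO (median -0.31), and limma called 0 in CTCF-B KO (median -0.18, with 0 at an unadjusted p under 0.05), where 20.6% of all genes were lower. That 0 depended on the spread pooled over the 3 groups: without CTCF-A KO replicate 4, 2 of the 5 were called lower in CTCF-B KO, and with replicate 4 alone 3 were. CHD9 fell by 0.88 (SE 0.25, adjusted p 0.0091) and CHD6 by 0.31 (adjusted p 0.0376) in CTCF-A KO, while CHD4, the NuRD remodeller, rose by 0.21 (adjusted p 0.0023). CHD6 was at -0.10 and not called after removal of the trend. In replicate 4 alone the values were -0.03 for CHD9, 0.12 for CHD6 and 0.18 for CHD4, and only 1 of the 5 was called lower. With a common median 2 were called lower in CTCF-A KO.

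Of 12 genes for proteins described as binding or modifying CTCF, 4 rose and 5 fell in CTCF-A KO (median -0.05), and 2 rose and 3 fell in CTCF-B KO (median -0.12). With all libraries set to a common median the CTCF-A KO counts were 5 and 2 (median 0.04), so the list has no direction there that holds under both scalings. PARP1, which adds poly(ADP-ribose) to CTCF, was at 0.10 (adjusted p 0.0148, but 0.04 and not called with the trend removed, adjusted p 0.13) and -0.35 (adjusted p 1.59e-06), and the difference between the knockouts was 0.45 (adjusted p 7.28e-08). CSNK2A1, a catalytic subunit of the kinase CK2, was at -0.13 and 0.24, and the first was 0.23 with the trend removed. UBTF, a factor of ribosomal DNA, rose in both (0.23, or 0.10 with the trend removed, and 0.16). PCGF2, a Polycomb ring finger gene, was at 0.45 (adjusted p 2.55e-05, and 0.27 with the trend removed) and -0.13, and ZBTB33, which encodes the methyl-CpG binder Kaiso, at -0.67 (adjusted p 0.00896) and -0.27, with 0.03 in replicate 4 alone.

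Of 13 other looping or competing factors, 4 rose and 4 fell in CTCF-A KO (median 0.05), and 2 rose and 6 fell in CTCF-B KO (median -0.15). In CTCF-A KO the counts were 7 and 4 without replicate 4, and the median turned to -0.08 with the trend removed and to -0.10 in replicate 4 alone. In CTCF-B KO the counts were 5 and 6 with the trend removed, and 3 and 4 after quantile normalization (median -0.03). Among all genes 31.8% were higher and 31.1% lower in CTCF-A KO, and 18.9% and 20.6% in CTCF-B KO. BHLHE40, a basic helix-loop-helix repressor, was at 11.39 ± 0.082 in wild type (SD, n = 4), 11.72 ± 0.089 with CTCF-A deleted and 10.55 ± 0.029 with CTCF-B deleted. It rose by 0.34 in the first (adjusted p 0.000138) and fell by 0.84 in the second (adjusted p 6.13e-08), and the knockouts differed by 1.17 (adjusted p 1.71e-09) and by 1.03 with the trend removed. LDB1, which ties enhancer complexes into loops, fell in CTCF-B KO (-0.42, adjusted p 8.22e-05) and was at 0.11 in CTCF-A KO. ZNF263 rose in both (0.60 and 0.22), and GTF3C3, a subunit of TFIIIC, was at -0.60 (adjusted p 0.00181) and 0.20.

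Of 12 genes of the INO80 and Polycomb complexes in which YY1 acts, 2 rose and 6 fell in CTCF-A KO (median -0.14), but 3 rose and 4 fell with the trend removed (median -0.03). Of the same 12, 3 rose and 2 fell in CTCF-B KO (median -0.03), but 1 rose and 4 fell with the trend removed (median -0.02). RYBP, which bridges YY1 to Polycomb, fell by 0.50 in CTCF-A KO (adjusted p 0.000833) and was at -0.08 with the trend removed. MBTD1 was at -0.58 (adjusted p 0.00852) and at 0.03 in replicate 4 alone. EED, a subunit of the Polycomb methyltransferase, was at -0.16 and 0.20, and at 0.02 in CTCF-A KO with the trend removed. INO80E rose in both (0.34 and 0.17), and YY1AP1 was at 0.06 and -0.28 (adjusted p 0.000449 for the second). In replicate 4 alone, 2 of these 12 genes were called higher and 0 lower, with the spread taken from the other groups.

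The cohesin genes, whose protein ring CTCF halts, gave 8 lower and 1 higher of 10 in CTCF-A KO (median -0.62), where 31.1% of all genes were lower. After removal of the trend 5 were lower and 2 higher (median -0.30). PDS5A (-1.18), STAG2 (-0.77), STAG1 (-0.76), SMC3 (-0.63), WAPL (-0.63) and RAD21 (-0.61) were among the lower ones, of which SMC3 and STAG2 lost their calls with the trend removed (adjusted p 0.16 and 0.099), and the loader subunit MAU2 rose (0.28). NIPBL was at -0.01, and at 0.46 with the trend removed. In replicate 4 alone the median was 0.02, with 2 called lower and 1 higher, and with a common median of all libraries 5 were called lower. In CTCF-B KO 1 of the 10, MAU2 (0.22), was called higher and 0 lower by limma (1 lower at an unadjusted p under 0.05, median -0.10). Of all genes, 20.6% were lower there. The 0 among the cohesin genes depended on the setting. In CTCF-B KO 2 were called lower without CTCF-A KO replicate 4 or with the trend removed, and 1 with a common median. Of 7 condensin genes, 3 fell and 1 rose in CTCF-A KO (median -0.38). The median was -0.10 with the trend removed and -0.11 in replicate 4 alone. NCAPG (-1.01), NCAPG2 (-0.51, and -0.18 with the trend removed) and NCAPD3 (-0.38) fell, while NCAPH2 rose by 0.33 and in CTCF-B KO fell by 0.21.

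Among 10 described targets of the members, 5 rose and 3 fell in CTCF-A KO (median 0.14), and 2 rose and 3 fell in CTCF-B KO (median -0.07). APP was lower in both (-1.40 and -0.66), and its value adds up the transgene and the cells' own copies. CDKN1A, the cell-cycle inhibitor p21, rose in both (0.79 and 0.43). TYMS, for thymidylate synthase, was at -0.06 and -0.45 (adjusted p 5.72e-06 for the second), and BUB1B, a spindle checkpoint kinase gene, at -0.59 (adjusted p 0.000457) and -0.20.

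**Figure D4:**
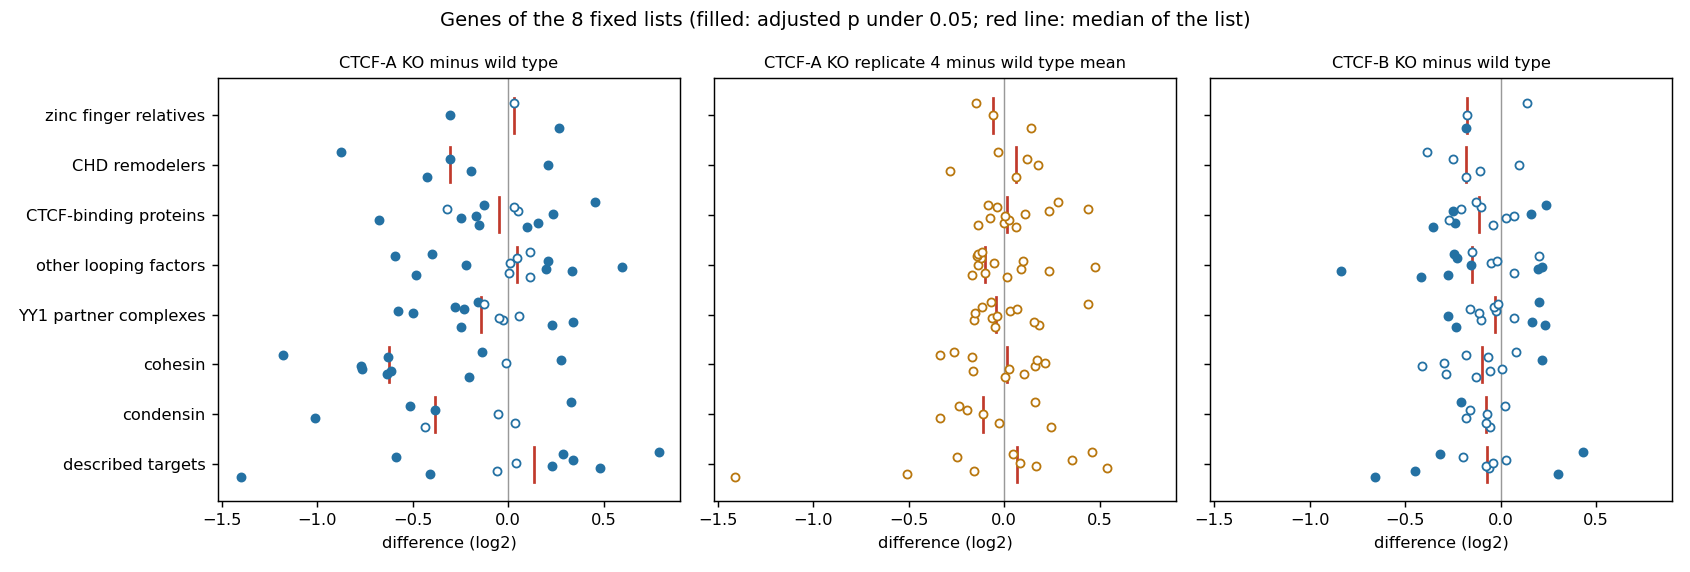
Log2 difference from wild type of the kept genes of 8 lists, for CTCF-A KO (left), for its replicate 4 alone (middle) and for CTCF-B KO (right). Each circle is a gene, filled where the adjusted p is under 0.05 (the middle panel carries no test), and red lines are list medians. The cohesin median is -0.62 on the left, 0.02 in the middle and -0.10 on the right.

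Genes whose promoter window held the MAZ motif were compared, as a description, with all 8417 kept genes that matched the promoter table. In CTCF-B KO, where MAZ fell, 28.3% of the 1554 genes with the motif were called lower and 17.2% higher, against 21.8% and 18.9% of all matched genes, and their median difference was -0.04 against 0.00. In CTCF-A KO the shares were 35.1% and 33.0%, against 32.6% and 32.5%. The transcripts of these genes had a median GC content of 49.6%, against 48.4%. Of the 316 genes with the longer YY1 form, 34.2% were lower and 30.1% higher in CTCF-A KO, and of the 53 with the longer ZNF143 form 41.5% and 20.8%. In CTCF-B KO, where neither YY1 nor ZNF143 was called, the longer YY1 form gave 15.5% lower and 19.6% higher. The longer ZNF143 form gave 22.6% and 15.1% there. For the short cores, chosen after the data had been seen, the CTCF-A KO shares were 33.8% and 30.8% of 591 genes for YY1. For ZNF143 they were 35.6% and 25.3% of 87 genes. In CTCF-B KO the short cores gave 17.4% and 19.5% for YY1, and 19.5% and 18.4% for ZNF143. Of the 45 genes with the CTCF consensus, 18 were higher and 10 lower in CTCF-A KO, and 8 and 4 in CTCF-B KO. The transcripts of these 45 genes had a median GC content of 51.6%. It was 48.6% for the longer YY1 form and 44.8% for the longer ZNF143 form, against 48.4% for all matched genes. The part of the tilt with base composition in these shares was not tested.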

How the data were processed

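Total RNA of 12 libraries (3 groups of 4) was sequenced as read pairs. The deposited table holds log2 normalized expression values made by the authors. Per the submitters' processing notes, Trimmomatic 0.33, featureCounts, DESeq2 and GRCh38.p7 were used. The aligner, annotation, strand setting and transformation are not given in the sources used here, and the depth is unknown, so no counting error can be given.

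The values were used as they stood, although the plan had allowed for linear values. Genes at 10 or more on the linear scale in at least 4 libraries were kept (11128 of 11178). One model of 3 groups was fitted with limma 3.58.1 (R 4.3.3, trended variance), tested two-sided with Benjamini-Hochberg adjustment over all kept genes at 0.05, and checked on simulated data. The trend alternative removed natural splines of GC content (5 degrees of freedom) and log2 length (4) with their product from each library. Positions are from GENCODE 29 (GRCh38). Named genes were the members, the 3 genes most correlated with each, the nearest kept neighbour on each side, and list genes called with a log2 difference of at least 0.5 or with the 2 smallest adjusted p in either comparison with wild type. The members and lists were chosen with earlier results of these data known. Alternatives were scalings, filters, libraries left out, the replicate number as a block, the trend and replicate 4 of CTCF-A KO alone. The 8-letter YY1 and ZNF143 cores were added after the data had been seen. Replicate numbers did not pair the samples. Listed genes without a row in the table were not analysed here.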

Additional observations from a re-analysis of the deposited data

Results flagged for a closer look

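The effects of the 2 deletions differed for 3 of the 5 genes by a test of the difference itself (limma, adjusted p under 0.05). Over all genes 7349 of 11128 were called in this comparison, so that count is no result about the members. YY1 was lower in CTCF-A KO than in CTCF-B KO by a log2 difference of -0.20, with all 4 libraries of the first below all 4 of the second. ZNF143 differed by -0.491 in the same direction, and by -0.06 with replicate 4 standing alone for CTCF-A KO. Its libraries did not overlap, but only narrowly, with CTCF-A KO replicate 4 at 7.881 and CTCF-B KO replicate 1 at 7.896. With the GC and length trend removed, CTCF-A KO replicate 4 was at 7.933, within the CTCF-B KO range. MAZ differed by 0.227, higher in CTCF-A KO, with 3 of 4 libraries above all those of CTCF-B KO, and by -0.01 with the GC and length trend removed. For MAZ the exact permutation p was 0.0857, and the limma call was lost in 7 of 12 cases when 1 library was left out. No library of any group stood apart by Dixon's test for the 5 genes, which would flag about 1 in 20 groups by chance.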

How the results depend on the processing

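The calls and directions of CTCF and YY1 against wild type in CTCF-A KO, and of CTCF in CTCF-B KO, held in 23 of 23 alternatives each. Several of these, such as the filters, the replicate block or leaving out a library of the group not compared, could move only the call and not the difference. The falls of CTCF ranged from 0.171 to 0.32 and from 0.222 to 0.277, and that of YY1 from 0.149 to 0.268. With only the 8 libraries compared, 6601 genes were called in CTCF-B KO in place of 4389. With CTCF-A KO replicate 4 as its only library, the genes called against wild type numbered 4654 in place of 7002, and 6604 in CTCF-B KO. In this second setting MAZ was at -0.314, ZNF143 at -0.147 and CHD8 at 0.151 against wild type, MAZ at -0.0237 and ZNF143 at -0.0609 against CTCF-B KO, and CHD6 at 0.118, KIF22 at -0.00852, MBTD1 at 0.0301, SMC3 at 0.103, STAG1 at 0.0262, STAG2 at 0.163 and ZBTB33 at 0.0261. With the GC and length trend removed, with or without the replicate block, MAZ in CTCF-A KO was at -0.26, CHD8 in CTCF-B KO at 0.144, MAZ between the knockouts at -0.00946 and CHD8 between them at -0.163, and the CTCF-A KO values were -0.103 for ACD, 0.225 for CSNK2A1, 0.0238 for EED, 0.463 for NIPBL, 0.0117 for VEZF1, 0.0787 for WEE1, -0.103 for YY1AP1 and -0.11 for ZNF76. A common median gave -0.275 for MAZ in CTCF-B KO (not called) and moved the share of higher calls in CTCF-A KO from 50.6% to 61.7%. MAZ between the knockouts was 0.198 after quantile normalization and 0.227, not called, with only the 8 libraries compared or by the exact permutation test. Leaving out 1 library at a time gave 0.16 to 0.31 for MAZ between the knockouts, with the call lost in 7 of 12 cases, -0.336 to -0.236 for MAZ in CTCF-B KO, -0.195 to -0.0546 for CHD8 in CTCF-A KO and -0.236 to -0.0962 for CHD8 between the knockouts. The replicate number as a block gave 7060, 4414 and 7420 called genes and changed no call of the 5 genes. Libraries with the same number correlated between -0.3194 and 0.433, and 4 of 12 correlated best with their own number. The causes of these changes were not tested. Without counts, the depth behind any value is unknown.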
